A study of Nasonia vitripennis with 2 samples.

Results

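Methylated CpG sites of the parasitoid wasp Nasonia vitripennis lie in clusters, and 738 of these clusters combine a middle length with a high level. They were chosen on the counts themselves. A CpG site with at least 10 reads was a covered CpG, and a covered CpG with more than 10% methylated reads was an mCpG. mCpGs on one scaffold were chained while they lay at most 500 bp apart, and a chain ended at 3 covered non-methylated CpGs in a row. Chains with at least 4 covered CpGs, of which more than 80% were mCpGs, were kept. The highly methylated clusters are those spanning at least 500 and under 2500 bp in which at least 75% of all reads at covered CpGs were methylated. They make up 13.5% of the 5451 clusters with more than 40% methylation, and 16.7% of the 4410 such clusters of the same length range. The other 3672 clusters of that length range, above 40% and under 75%, are called partially methylated clusters and serve as the comparison.

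The DNA came from the whole bodies of 50 adult females at 24 h, pooled, of the standard strain AsymCX, which is cured of the bacterium Wolbachia. The bisulfite-converted pool was sequenced in 2 lanes, which are runs of the same DNA and not replicates, and their reads were summed. There was 1 pool and no other condition, so no value has a replicate error. A whole-body pool mixes many cell types and animals, and a partly methylated site cannot be told apart from a mixture of methylated and non-methylated cells.

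In insects, DNA methylation is found mostly at CpG dinucleotides inside the transcribed bodies of a subset of genes, while transposons and most other DNA carry little. It is placed and copied by DNA methyltransferases, and a methylated cytosine is prone to mutate to thymine, so that lineages methylated in the germ line lose CpG sites over time. In bisulfite sequencing a non-methylated cytosine is read as T and a methylated one as C, so the share of C reads gives the methylation percentage of a site. Neither sequence nor gene structure of the clusters was analysed here, since no genome of the release used for the counts was at hand. Positions are those of the study's scaffolds.

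Over all scaffolds, 7818889 of 14024488 CpG sites were covered, with a median of 19 reads per covered CpG, and 1.50% of covered CpGs were mCpGs. The highly methylated clusters held 14350 CpG sites in 788594 bp. Of these, 12393 (86.4%) were covered, 1832 had 1 to 9 reads and 125 had none. Among the covered CpGs, 12251 were mCpGs, 98.9% (interval 98.7% to 99.03%), which the rule in part fixed. All intervals of shares are 95% Wilson intervals. They cover only the error of counting reads, because amplified reads carry no molecular tags that would tell copies apart and 1 read is counted at every site it spans.

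Pooled over the 738 clusters, 302093 of 380623 reads at covered CpGs were methylated, 79.4% (79.2% to 79.5%), against 61.1% (61.0% to 61.1%) in the partially methylated clusters. These levels chose the members and are a description. The level of a single highly methylated cluster ran from 75% to 95.3% with a median of 78.9% (quartiles 76.8% and 81.8%). Most members therefore lay close to the limit: 441 were at 75% to 80%, 216 at 80% to 85%, 74 at 85% to 90% and 7 at 90% or more. The distribution of levels had no gap at 75%, with 112 members within 1 percentage point above the limit and 119 clusters within 1 point below it. For 378 members (51.2%) the interval of the level lay wholly at or above 75%, and for the other 360 it included 75%.

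**Figure D1:**
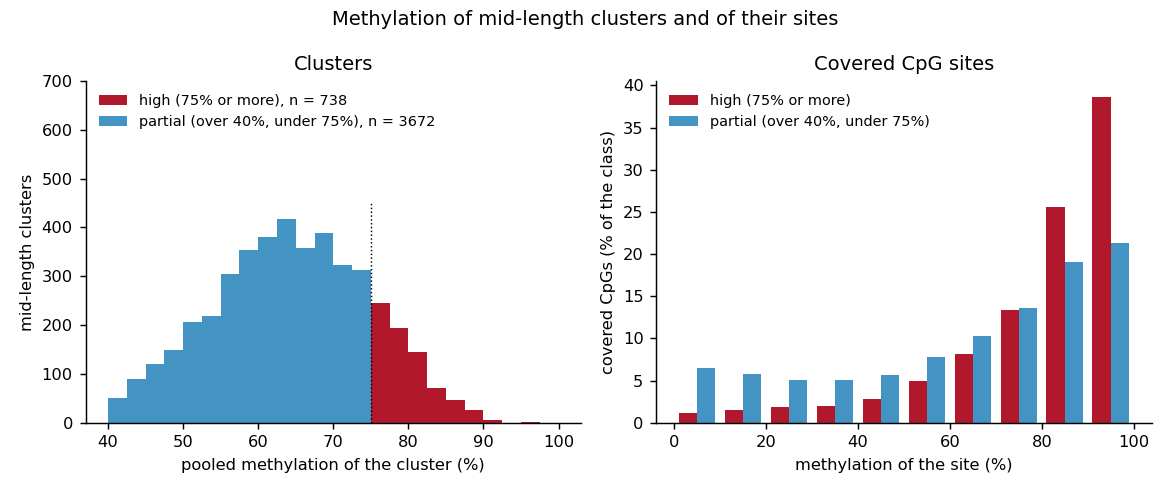
Left, number of mid-length clusters by pooled methylation percentage in steps of 2.5 points, with the 738 highly methylated clusters in red and the 3672 partially methylated clusters in blue, and a dotted line at the 75% limit. Right, share of covered CpG sites (%) in each class by the site's own methylation percentage in steps of 10 points. Clusters run through the limit without a gap, and the highest step of site levels holds 38.6% of the sites in highly methylated clusters and 21.3% in partially methylated ones. The same counts sorted the 2 classes.

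The median covered CpG had 85.7% methylated reads (quartiles 71.9% and 93.3%), against 72.7% (44.4% and 87.8%) in partially methylated clusters. Every read was methylated at 1275 covered CpGs (10.3%), against 5.17% in partially methylated clusters. More than 90% of reads were methylated at 4561 covered CpGs (36.8%), against 20.2%. At the low end, 1263 covered CpGs (10.2%) had 50% or less, against 29.3% in partially methylated clusters. Few members were therefore high at each of their sites. In 148 (20.1%) every covered CpG was above 50%, against 19 (0.517%) of the partially methylated clusters, and the lowest covered CpG of a cluster had a median of 29.6%, against 4.55%.

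A cluster near the top of the range shows what a nearly uniform one looks like. SCAFFOLD14:188943-189591 had the highest level among the 641 members with at least 10 covered CpGs, 91.3% (87.7% to 93.9%), from 293 of 321 reads at 12 covered CpGs. Its first mCpG had 10 of 10 methylated reads, and the sites 216, 283 and 317 bp further on had 52 of 52, 59 of 69 and 53 of 54. Its lowest covered CpG, 410 bp from the first, had 12 of 17, and its last had 31 of 35. The 4 sites in it with fewer than 10 reads had 6 of 6, 7 of 7, 5 of 5 and 8 of 9 methylated reads. High values thus ran through the whole cluster. The sites with fewer than 10 reads all lie under 75 bp from a covered CpG. They can share reads with sites that the rule used and are no separate support.

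The other 4 of the 5 highest were SCAFFOLD1:8166822-8167483 at 90.8%, SCAFFOLD16:1087000-1087602 at 90.4%, SCAFFOLD28:1222825-1223339 at 89.8% and SCAFFOLD4:3240267-3241278 at 89.6%. The cluster of SCAFFOLD1 had no covered CpG under 80%, with 11 of 12 reads at its first mCpG, 17 of 17 at 14 bp and 20 of 25 at its last. The clusters of SCAFFOLD16 and SCAFFOLD28 were lowest at their first mCpGs, with 4 of 10 and 3 of 10 reads. The cluster of SCAFFOLD4 had 46 of 48 reads at its first mCpG and 34 of 35 at its last, 1011 bp away, and its lowest covered CpG had 10 of 17. Of the 5 clusters, 4 thus held at least 1 covered CpG under 75%.

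The longest member, SCAFFOLD24:3932-6420, kept its level over 2489 bp: 1331 of 1530 reads were methylated at 40 covered CpGs, 87.0% (85.2% to 88.6%). The sites at 735, 867 and 869 bp from its start had 74 of 76, 74 of 76 and 73 of 76 methylated reads, and the site at 1680 bp had 102 of 113. A single covered CpG in it was no mCpG, with 2 of 24 reads at 553 bp, although the covered sites on either side, at 457 and 630 bp, had 14 of 16 and 11 of 11. The shortest member, SCAFFOLD128:425445-425944, spanned 500 bp and rested on 5 covered CpGs with 93 of 118 methylated reads, 78.8% (70.6% to 85.2%). Its nearest other cluster lay 360946 bp away, the farthest for any member.

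Each of the 3 members with the most covered CpGs held covered CpGs with few or no methylated reads. SCAFFOLD214:32114-34519 had 49 covered CpGs, all of them mCpGs, at 76.8%. A pair of sites at 1994 and 1996 bp from its start had 4 of 31 and 6 of 32 methylated reads, while the sites at 1541 and 2117 bp had 51 of 51 and 46 of 50. SCAFFOLD1:2643517-2645455 had 41 covered CpGs at 77.9%, and 1 of them, 120 bp from the start, had 0 of 11 methylated reads. SCAFFOLD682:17312-19705 had 41 covered CpGs, of which 5 were not mCpGs, and stood at 75.1%. Toward its right end the sites at 2099 and 2101 bp had 0 of 21 and 0 of 20 methylated reads, those at 2171, 2187 and 2209 bp had 11 of 11, 12 of 12 and 12 of 12, and the next covered sites, at 2292 and 2296 bp, had 0 of 12 and 1 of 14. Methylated and non-methylated runs thus alternated within 200 bp, and a further 17 sites in its middle had no read at all.

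**Figure D2:**
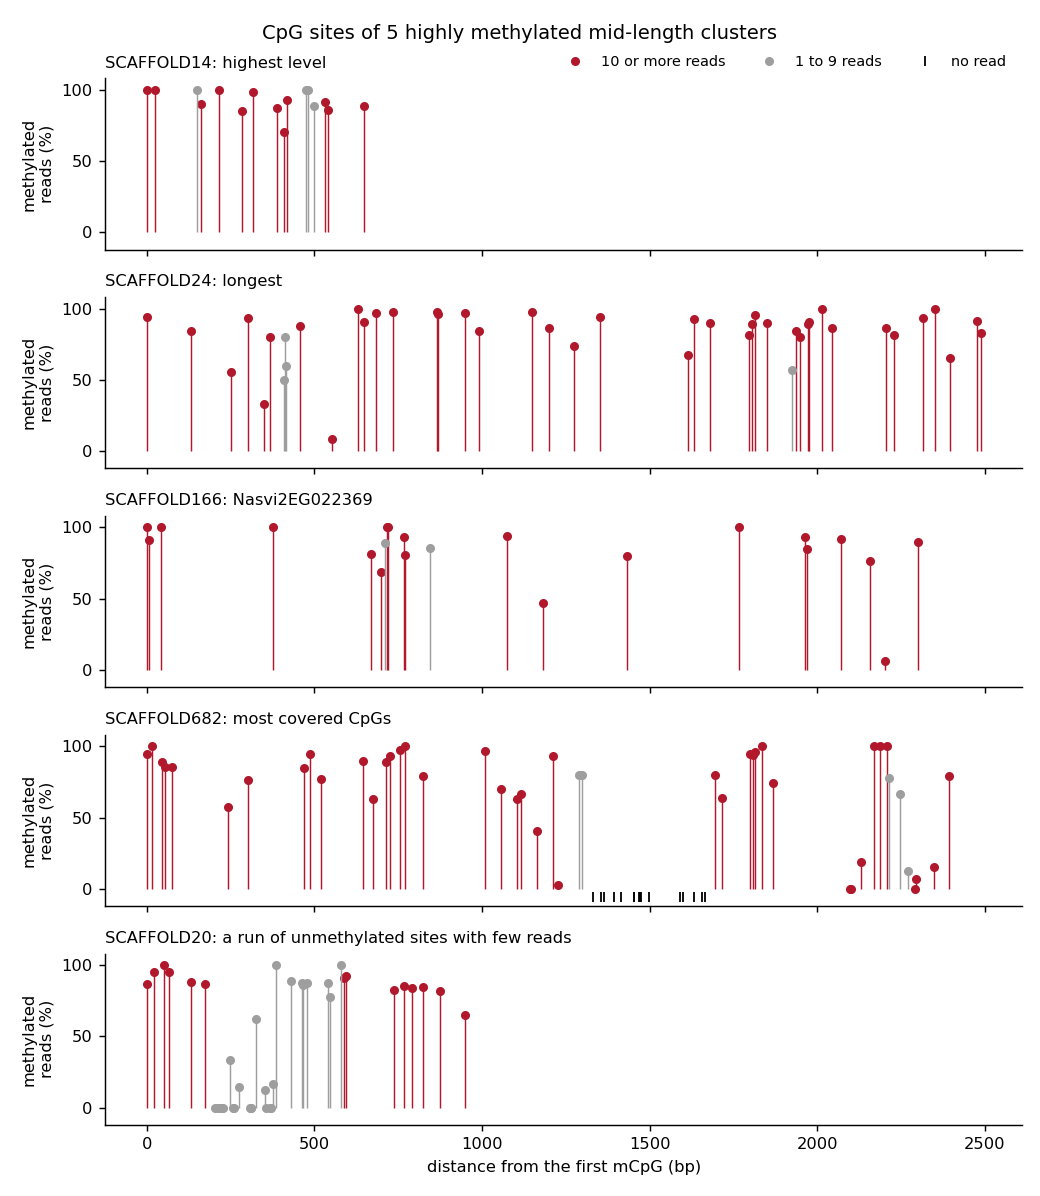
CpG sites of 5 highly methylated clusters, each drawn at its distance from the first mCpG (bp) with its share of methylated reads (%); red sites have 10 or more reads, grey sites have 1 to 9 and black ticks below the axis have none. From the top: the member with the highest level (12 covered CpGs), the longest member (2489 bp), the member with the intronic candidate site of Nasvi2EG022369, a member with one of the most covered CpGs and a dip near its right end, and a member of SCAFFOLD20 in which a run of sites with few reads is mostly non-methylated.

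At the limit the values differed by little. Of the members, 6 were at exactly 75%, among them SCAFFOLD1:7992359-7993255 with 240 of 320 methylated reads, SCAFFOLD1:8775812-8777301 with 300 of 400 and SCAFFOLD39:203768-205326 with 270 of 360. Just outside were SCAFFOLD18:80838-81645 with 545 of 727 reads, SCAFFOLD28:511068-512562 with 691 of 922 and SCAFFOLD51:820085-820756 with 335 of 447. In SCAFFOLD18:80838-81645 the sites from 4 to 613 bp had at least 13 of 26 methylated reads each, and the last 4 covered CpGs, at 759 to 807 bp, had 6 of 27, 2 of 20, 2 of 19 and 5 of 19, so that its sites under 50% all lay at its ends.

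Sites of most members differed by more than the sampling of reads gives. The dispersion index, the spread of the sites' read shares over that of binomial sampling at the cluster's level (1 where sampling alone acts), had a median of 6.44 (quartiles 3.97 and 9.10) in the highly methylated clusters, against 12 (8.62 and 15.8) in the partially methylated ones. It was under 2 in 40 members (5.42%) and in 12 (0.327%) of the partially methylated clusters. Along the cluster the level was more even: the pooled levels on the left and on the right of the middle differed by a median of 8.71 points in the 693 members with at least 3 covered CpGs on each side, against 15.8 points in 3569 partially methylated clusters. The difference was over 20 points in 102 members (14.7%), against 38.4% of partially methylated clusters, and was 56.6 points at most in members. Since a high level leaves less room for spread, these values follow in part from the rule.

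Covered non-methylated CpGs were rare inside the members. The rule in part fixed this, and the contrast with partially methylated clusters, since it set the level over the same sites. Inside the members there were 142 such CpGs, in 114 clusters, and 624 clusters (84.6%) had none, against 34.6% of partially methylated clusters. Their median depth was 19.5 reads, against 25 over all covered CpGs in members, and the part of depth in them was not tested. Of these sites, 63 had no methylated read, and over all 142 there were 136 methylated reads of 3380. Within 200 bp of a cluster end lay 99 of them (69.7%), against 47.2% of all covered CpGs in members. The covered CpGs on either side of them had a median of 73.9% methylated reads.

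Among covered CpGs, methylation in the highly methylated clusters varied little with the number of reads at a site. Between 78.3% and 80.1% of reads were methylated in every class of covered CpGs, from 79.3% at sites with 10 to 14 reads to 79.9% at the 105 sites with 100 or more. In partially methylated clusters the level was lower at deeper sites, with 69.5% at 10 to 14 reads, 60.4% at 40 to 59 and 48.4% at 100 or more. The rule sorted the 2 classes by these same counts, and deep sites weigh most in the pooled level. The even values and the contrast therefore follow in part from the rule. Sites with 1 to 2, 3 to 4, 5 to 6 and 7 to 9 reads were not used by it. They had 72.3%, 73.7%, 77.0% and 75.3% in members, against 68.8%, 69.8%, 67.65% and 70.4%. The highly methylated clusters were also somewhat shallower, with a median over clusters of 29.5 reads per covered CpG (quartiles 24.2 and 35.6), against 34.5 reads (28.5 and 40.9) in the partially methylated ones. The part of depth in which clusters pass the limit was not tested.

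**Figure D3:**
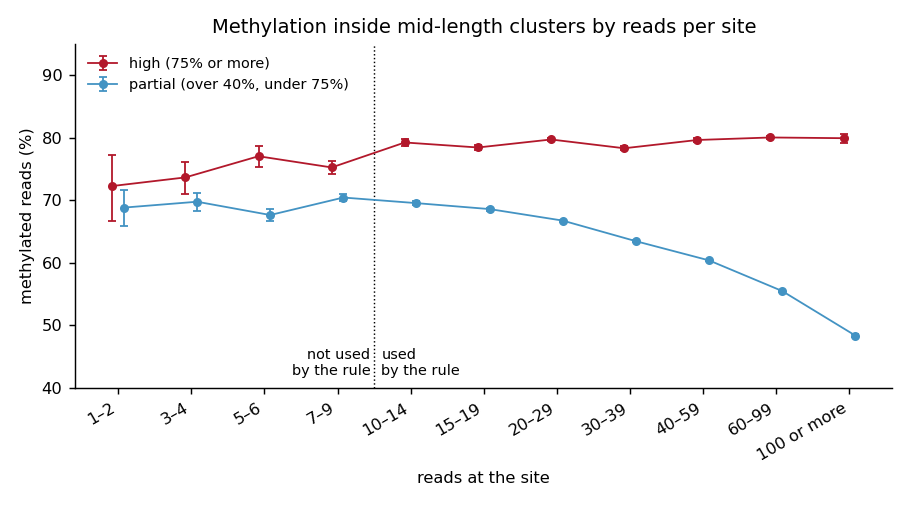
Methylated reads (%) by the number of reads at a site, pooled over the sites of highly methylated (red) and partially methylated (blue) clusters, with 95% Wilson intervals. The dotted line separates sites with 1 to 9 reads, which the rule did not use, from covered CpGs; the red points stay near 79% among covered CpGs, and the blue points are lower at deeper sites.

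Sites with 1 to 9 reads were not used to choose the clusters, and those at least 75 bp (1 read length) from every covered CpG share no read with a site that was used. At 487 such sites in 149 highly methylated clusters, 1863 of 2530 reads were methylated, 73.6% (71.9% to 75.3%). At 1625 such sites in 667 partially methylated clusters, 5899 of 8614 were, 68.5% (67.5% to 69.5%). The difference was 5.15 points (Newcombe interval 3.15 to 7.10; odds ratio 1.29; Fisher's exact test, two-sided, p = 5.9e-07, adjusted over 2 tests p = 5.9e-07), while at covered CpGs the classes lay at 79.4% and 61.1%. The test compares reads of this pool, which are not independent within a cluster, so its p-value is too small. By the same exact test the difference was 0.00788 points (p = 1) where the limit was put at 80%, and 2.07 points (p = 0.466) where mCpGs had to lie within 200 bp of each other. Without the cluster SCAFFOLD144:226929-228282 it was 8.72 points. Only members were left out in this way. No methylated read was found at such sites in 4 of the 149 members and in 34 of the 667 partially methylated clusters.

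Sorted by the level of their cluster at covered CpGs, the unused sites gave the following values. In members at 75% to 80%, 80% to 85% and 85% or more, the unused sites had 75.8% (73.6% to 77.8%), 74.3% (70.5% to 77.9%) and 62.6% (57.4% to 67.5%) methylated reads, the last from 70 sites in 14 clusters. Single clusters weighed heavily on these values: without SCAFFOLD20:161070-162019 the last was 78.1% (72.3% to 83.0%), and without SCAFFOLD144:226929-228282 the first was 81.5% (79.5% to 83.4%). In partially methylated clusters at 40% to 50%, 50% to 60%, 60% to 70% and 70% to 75% they had 67.5%, 71.2%, 63.8% and 75.5%. Cluster by cluster, 64 of the 88 members with at least 10 such reads (72.7%) had 75% or more of them methylated, with a median of 85.7%, against 169 of 286 partially methylated clusters (59.1%) with a median of 80%.

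A few members held stretches of non-methylated sites with few reads, which the rule could not see. Of the 738, 303 had no site with 1 to 9 reads and 141 had at least 5. In 89 of these 141 the low-read sites were pooled at 75% or more, in 42 at 50% to 75% and in 10 (7.09%) under 50%, against 95 of 510 (18.6%) in partially methylated clusters. SCAFFOLD144:226929-228282 stood apart: its 8 covered CpGs had 135 of 178 methylated reads, 75.8%, while its 38 low-read sites had 3 of 154. Its sites at 142 and 339 bp had 46 of 47 and 27 of 27 methylated reads, and its sites at 1110, 1151 and 1173 bp had 0 of 8, 0 of 7 and 0 of 6. In SCAFFOLD20:161070-162019, at 86.6% over 14 covered CpGs, the low-read sites at 205 to 227 bp had 0 of 6 or 0 of 7 reads each, and those at 386, 429 and 463 bp had 7 of 7, 8 of 9 and 7 of 8. With that cluster left out, since it had the most unused reads of all members, the unused sites stood at 75.7% in highly methylated clusters, 7.18 points above the partially methylated ones. With SCAFFOLD144:226929-228282 left out, which had the next most, they stood at 77.2%, 8.72 points above. Both had low levels at their unused sites, and no partially methylated cluster was left out in the same way.

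Methylation stopped over a short distance at the ends of the highly methylated clusters. The mCpGs that form the ends had 72.5% (72.1% to 72.9%) methylated reads, and the sites up to 100 bp inside 76.1%, those from 100 to 200 bp inside 79.9% and those from 300 to 400 bp inside 82.8%. Outside, the covered CpGs 1 to 25 bp beyond an end had 2.18% (1.83% to 2.58%) and those at 26 to 50 bp 2.06%. In partially methylated clusters the end mCpGs had 53.0% and the same inner bins 51.3%, 58.8% and 67.4%. Levels inside the clusters sorted the 2 classes, so contrasts between them there follow in part from the rule. The end bins are shaped by the rule, which ends a chain at an mCpG and lets non-methylated sites follow. Of the 1476 ends, 1334 (90.4%) were closed by 3 non-methylated CpGs and 129 (8.74%) by a gap before the next mCpG, against 94.7% and 4.63% of the ends of partially methylated clusters. The next covered CpG beyond an end lay at a median distance of 107 bp (quartiles 52 and 238), against 80 bp (37 and 165).

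Levels near the ends went up and down with distance. With the end mCpGs left aside, the lowest level inside the highly methylated clusters was at 76 to 100 bp from an end, 74.2% (73.5% to 74.9%). The highest was at 176 to 200 bp, 84.4% (83.8% to 84.9%), and the level was lower again in the bin of 251 to 275 bp, 78.2% (77.5% to 78.8%). A further high, 83.5%, came at 351 to 375 bp. Outside, the highest of the bins within 500 bp was at 151 to 175 bp, with 5.20% (4.92% to 5.51%) methylated reads and 7.47% mCpGs, and at 226 to 250 bp the level was 2.27%. The rise up to this high is shaped in part by the rule, since most ends were closed by 3 covered non-methylated CpGs. Of the covered CpGs at 1 to 25 bp outside, 0% were mCpGs, and at 26 to 50 bp 1.52%. The partially methylated clusters had 66.1% at 176 to 200 bp inside and 3.78% at 151 to 175 bp outside.

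**Figure D4:**
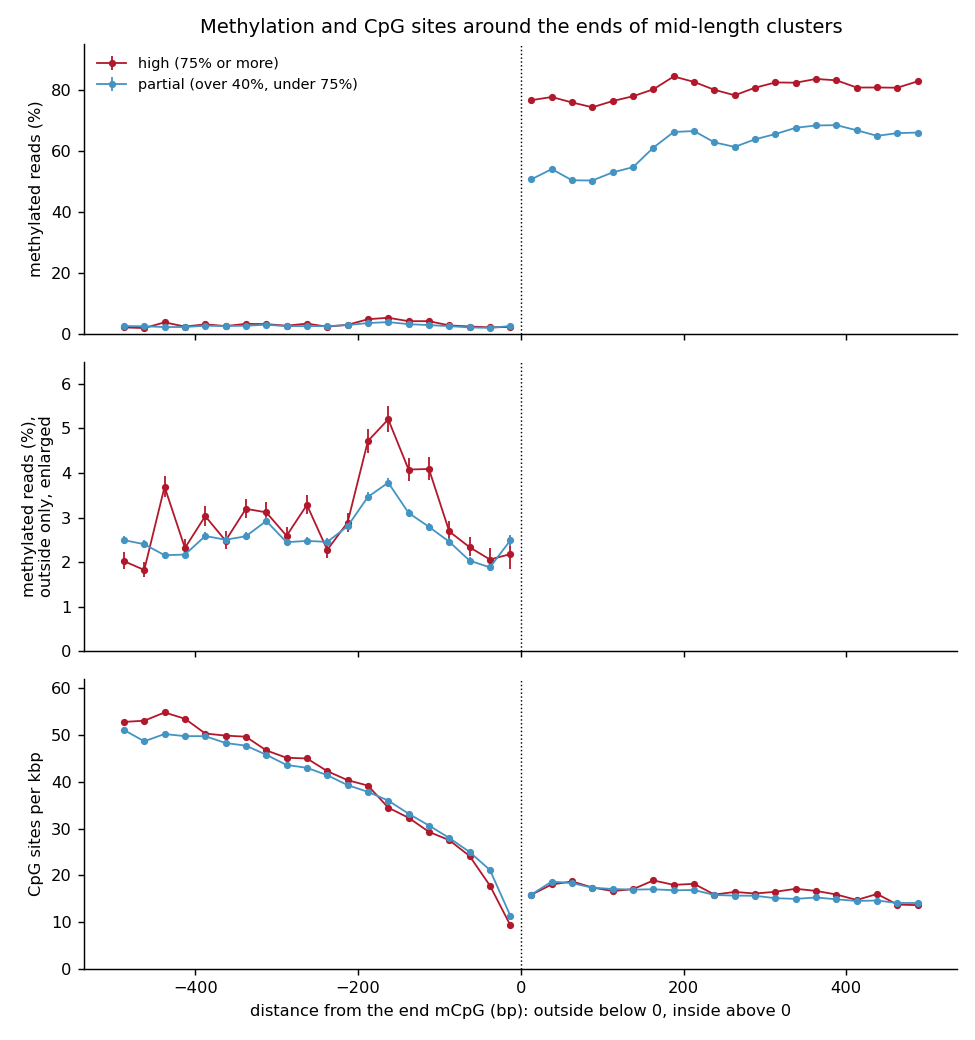
Sites in bins of 25 bp by distance from the end mCpG, outside the cluster (below 0) and inside (above 0), for highly methylated (red) and partially methylated (blue) clusters. Top and middle, methylated reads (%) with 95% Wilson intervals, the middle panel enlarging the outside; bottom, CpG sites per kbp. Methylation steps down at the end, with a small peak of 5.20% at 151 to 175 bp outside the highly methylated clusters, and CpG density climbs outward. The outer bins next to the end are lowered by the rule that closes chains.

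The flanks held slightly more methylated reads beside the highly methylated clusters. At 14831 covered CpGs 75 to 500 bp beyond the ends of 711 members and in no cluster, 12531 of 398357 reads were methylated, 3.15% (3.09% to 3.20%). Beside 3623 partially methylated clusters, 61378 of 2286432 were, 2.68% (2.66% to 2.71%). The difference was 0.461 points (Newcombe interval 0.404 to 0.520). It is a description, with no test read from it, because the non-methylated CpGs by which the rule closes a chain lie in these flanks and closed more of the ends of partially methylated clusters. With the 3 covered CpGs next to each end left out, the levels were 3.61% beside highly methylated and 3.04% beside partially methylated clusters, a difference of 0.571 points. In these flanks 625 covered CpGs (4.21%) were mCpGs, against 3.94%. The difference was 0.234 points between 200 and 500 bp and 0.122 points where a chain ended only at 5 non-methylated CpGs. Farther out, the level beside highly methylated clusters was 2.94% from 500 to 1000 bp, against 2.48% beside partially methylated ones. From 1000 to 2000 bp it was 1.75%, against 1.86%, and from 2000 to 5000 bp 0.772%, against 0.806%, so that the order turned beyond 1000 bp.

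The highly methylated clusters held few CpG sites. They had 18.2 CpG sites per kbp when pooled, against 16.9 in partially methylated clusters and 47.6 over all scaffolds, and the shorter and longer clusters had 25.6 and 14.5. The density of a member ranged from 5.77 to 42.1 sites per kbp with a median of 17.9. Outside their ends the density climbed with distance, with 9.36 sites per kbp at 1 to 25 bp, 24.1 at 51 to 75 bp, 34.5 at 151 to 175 bp and 53.6 from 400 to 500 bp. The bins next to the end are lowered by the rule, since an mCpG there would mostly have been part of the cluster. Of the covered CpGs, 0% were mCpGs at 1 to 25 bp, 1.52% at 26 to 50 bp and 1.97% at 51 to 75 bp. How far the rule shapes the climb was not tested. Within the members, covered CpGs whose nearest CpG lay 11 to 25 bp away had the highest level, 82.0% (81.8% to 82.3%), and those with the nearest at 51 to 100 bp the lowest, 75.9% (75.5% to 76.2%). The 320 covered CpGs with another CpG 2 bp away, the closest that is possible, had 78.3%, against 52.4% in partially methylated clusters. Since the rule sorted the 2 classes by counts at covered CpGs, this contrast follows in part from it.

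The members were also shorter, with a median span of 980.5 bp (quartiles 760.5 and 1270 bp) and 16 covered CpGs, against 1174 bp (870 and 1546 bp) and 18 in the partially methylated clusters. Among the 738 members the level had a Spearman correlation of −0.15 with the span, −0.09 with the mean depth and −0.04 with the CpG density, given as a description over clusters of 1 library that share their depth and base composition.

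Pairs of covered CpGs in a highly methylated cluster were alike at short distance and again at about 170 bp. Over all pairs of a distance class, Pearson's r of their methylation percentages was 0.53 at 1 to 20 bp (3471 pairs), −0.11 at 61 to 80 bp, 0.15 at 161 to 180 bp (3088 pairs), −0.11 at 241 to 260 bp, 0.04 for pairs 321 to 340 bp apart and −0.11 for pairs 400 to 420 bp apart. The mean absolute difference of a pair was 13.5 points at 1 to 20 bp, 22.6 at 61 to 80 bp and 16.9 at 161 to 180 bp. In partially methylated clusters r was 0.66, 0.04, 0.23, −0.04, 0.10 and −0.07 in the same classes of distance. Sites under 75 bp apart can lie on the same read, all pairs share the depth and base composition of 1 library, and the values are a description.

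**Figure D5:**
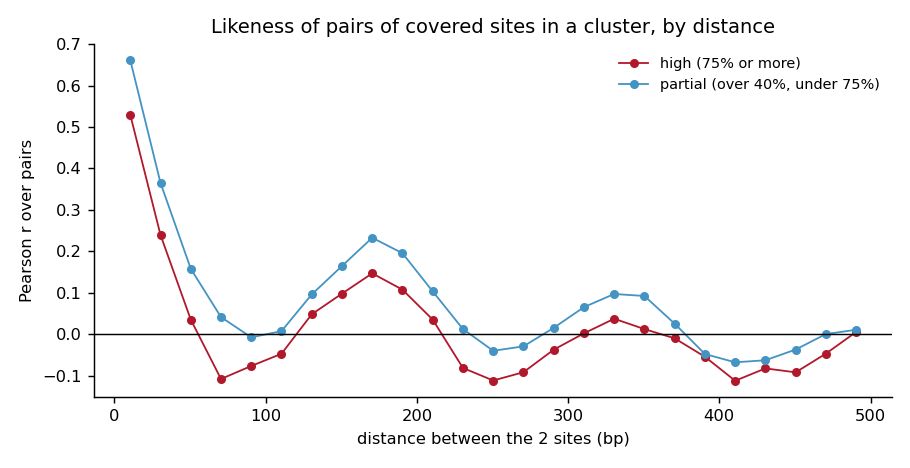
Pearson's r (vertical axis) between the methylation percentages of covered CpGs in the same cluster, over pairs in steps of 20 bp of distance (horizontal axis), in highly methylated (red) and partially methylated (blue) clusters. Both lines have a second peak at 161 to 180 bp, 0.15 in red and 0.23 in blue.

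The highly methylated clusters were spread over 151 scaffolds and lay among clusters of the other kinds. SCAFFOLD1 held 49, which is 16.5% (12.7% to 21.1%) of its 297 mid-length clusters. On the 28 scaffolds with at least 50 mid-length clusters the share of highly methylated ones ran from 11.3% to 21.7%, and on each of the 28 its interval included the 16.7% of the whole. Another cluster was on the same scaffold for 722 members, at a median distance of 1751 bp (quartiles 886 and 4963 bp), against 1699 bp for partially methylated clusters, and within 1000 bp for 200 members (27.1%), against 28.1%. The nearest cluster was itself highly methylated for 94 of the 722 (13.0%), against 12.6% of partially methylated clusters, and partially methylated for 470 (65.1%).

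Gene names were at hand only where the study gives a position together with a gene identifier. Of 28 candidate sites of methylation outside CpG dinucleotides, 19 lay in a cluster of any kind and 6 in 5 of the highly methylated clusters. Members are 13.5% of all clusters, and these small counts were not tested. The study traced some candidates, none of these 6, to CpG sites misidentified through the reference. Most of the few candidates it examined by cloning were not verified. The one verified, in Nasvi2EG004247, lies in a partially methylated cluster. Of the 5 highly methylated clusters with a candidate, 4 hold a site that the study annotates as intronic. That of Nasvi2EG022369, SCAFFOLD166:48608-50908, had 532 of 677 methylated reads, 78.6% (75.3% to 81.5%), at 20 covered CpGs. Its first mCpG had 22 of 22 methylated reads and its last 44 of 49, while the covered CpG before the last, at 2202 bp, had 4 of 65, so the cluster's single covered non-methylated CpG lay close to a methylated end.

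The cluster of Nasvi2EG026653, SCAFFOLD316:12026-13962, stood at 79.8% (77.3% to 82.0%) with 26 covered CpGs, all mCpGs, and was the only cluster on its scaffold. Its sites at 667, 795 and 1474 bp had 22 of 22, 32 of 32 and 104 of 112 methylated reads, and those at 216 and 527 bp had 3 of 16 and 14 of 39. The cluster of Nasvi2EG012741, SCAFFOLD31:1728750-1729643, stood at 78.9% with 9 covered CpGs, and that of Nasvi2EG011228, SCAFFOLD24:145587-146528, at 78.4% with 17. The fifth, SCAFFOLD384:36197-37164, holds 2 candidate sites annotated as intergenic and stood at 88.2% (83.5% to 91.7%) with 209 of 237 reads at 7 covered CpGs. None of its 7 sites was under 66.7%, and it held no CpG site with fewer than 10 reads. Counts at the candidate sites were not used here.

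Another 15 gene regions and clusters with known positions were looked up, and 0 of them overlapped a highly methylated cluster. This count was not tested and cannot be set beside the share of 13.5% among all clusters. Several of the clusters looked up lie at the same gene, NV50511, and some regions belong to non-methylated genes. The study describes Nasvi2EG000207 and Nasvi2EG006064 as non-methylated. No cluster of any kind was found in the short cloned stretches of these genes, which are among the 15. The rest of these genes was not looked up. The nearest to the limit were partially methylated: 1 of the clusters at NV50511 stood at 74.2% (69.0% to 78.7%), with others there between 48.4% and 62.9%, that at NV18219 at 74.1% (71.1% to 76.9%) and that at Nasvi2EG003593 at 73.4% (69.98% to 76.6%). The intervals of these 3 clusters all included 75%.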

How the data were processed

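DNA from 1 pool of whole-body adult females was sequenced in 2 lanes. The authors trimmed reads to 75 bp, called bases with CASAVA 1.7, aligned reads with BWA to converted scaffolds, kept unique alignments and deposited raw counts of C and T reads per CpG site, summed over lanes and strands and not normalized. The BWA version, the scaffold release and the handling of duplicate reads are not given in the sources used here. From these counts, clusters were called and pooled methylation percentages computed, with no normalization. Reads at held-out sites, which the rule did not use, were compared by Fisher's exact test with Benjamini-Hochberg adjustment over the 2 planned tests. The other, of the flanks, is given as a description, since the rule that closes chains acts there. Cluster calls and the test were tried on simulated data with independent reads. Each simulated cluster had an even level, and none was near the limit. The simulation therefore cannot show how clusters near the limit are sorted. Nor can it show how the test acts on reads that depend on each other.

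The clusters, lists and tests were chosen with earlier results of these data known. Clusters named are the 5 highest with at least 10 covered CpGs, the 3 with the most covered CpGs, 3 just inside and 3 just outside the limit, the shortest, the longest and those at positions the study gives with a gene. SCAFFOLD144 and SCAFFOLD20 were chosen after their values were seen. Alternatives were other coverage minimums, mCpG thresholds, gaps, chain ends and limits, the mean of site percentages, leaving out sites above 170 reads, and other held-out and flank sites. Python 3.11.15, NumPy 2.4.6, pandas 2.3.3, SciPy 1.17.1, numba 0.67.0 and matplotlib 3.10.9 were used.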

Additional observations from a re-analysis of the deposited data

How the results depend on the processing

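The number of highly methylated clusters was 1373 with a limit of 70% and 297 with 80%, against 738, and stayed within 1.5 times of 738 under the other 10 alternatives (539 to 977). The clusters themselves changed more than their number: with mCpGs at most 200 bp apart, 472 of the 738 (64.0%) overlapped a member, and with a coverage minimum of 20 reads 527 did (71.4%). The pooled methylation of members, 79.4%, was 79.2% at a coverage minimum of 5 reads, 79.6% at 20 reads, 79.98% with mCpGs at most 200 bp apart, 79.5% with chains ended by 5 non-methylated CpGs, 75.8% and 83.1% at limits of 70% and 80%, and 77.3% where the mean of the sites' own percentages set the limit. The density of 18.2 CpG sites per kbp was 17.7 and 17.3 at coverage minimums of 15 and 20 reads and 20.5 with mCpGs at most 200 bp apart. The held-out difference of 5.15 points was no longer past the threshold with mCpGs at most 200 bp apart (2.07 points, 70.3% against 68.3%, Fisher's exact p = 0.466) and at a limit of 80% (0.00788 points, 69.7% against 69.7%, Fisher's exact p = 1). Under the other 13 alternatives it was positive and past the threshold, and the flank difference was positive under all 16 (0.122 to 1.75 points). Reads within a cluster are not independent, so the held-out p-values are too small under every alternative. The count past the threshold is therefore no measure of certainty. The alternatives that left out 1 of the 2 members with the most held-out reads (7.18 and 8.72 points), the member with the most methylated flank reads (0.384 points) or the covered CpGs next to each end, and flanks from 200 to 500 bp, were chosen after seeing the data. None of the alternatives left out a single partially methylated cluster. The cause of these changes was not tested. No paired analysis was possible because there was 1 pool. With a median of 25 reads per covered CpG in members, single sites are known to a wide interval only, and members near 75% cannot be told apart from clusters just below it.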
